A study of Mus musculus with 6 samples.

Results

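The nuclear genes of oxidative phosphorylation were examined in growth plate chondrocytes of Lkb1 mutant and control mice. They were chosen by name: symbols that start with Nduf, Uqcr or Atp5, or with Cox4i, Cox5, Cox6, Cox7 or Cox8, and the genes Sdha, Sdhb, Sdhc, Sdhd, Cyc1 and Cycs. RefSeq's mouse genes include 98 protein-coding ones with such a symbol, and 91 of them had a probe set annotated to them alone, among 19938 genes with such a probe set on the array. The set holds 6 core and 28 accessory subunits of complex I, 7 complex I assembly factors, the 4 subunits of complex II, 9 subunits of complex III, cytochrome c, 19 genes of complex IV and 17 of ATP synthase. The Ndufaf genes share the name stem but assemble complex I and are not part of it. Cox7c, Ndufb4 and Ndufb4b were measured only by probe sets that they share with another gene, and the rest were not analysed here.

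The study compared cartilage cells of the growth plate, the plate that lengthens a long bone, taken from the femur and tibia at postnatal day 30. There were 3 mutant and 3 control samples, each on its own single-channel Affymetrix array. The mutant mice carried a conditional mutation of Lkb1, now named Stk11, a kinase that activates AMPK and related kinases. Both groups had the same background strain, labelled mixed FVB, 129S6 and C57CL/6. The sources used here do not give the conditional allele, the Cre driver or the genotype of the controls. The replicates are labelled biological but are not said to come from separate animals, so a p-value reflects only how far these samples vary, which may be technical.

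Oxidative phosphorylation is carried out in the inner mitochondrial membrane. Complexes I and II pass electrons from NADH and succinate to ubiquinone, complex III passes them to cytochrome c, and complex IV passes them to oxygen. The proton gradient that complexes I, III and IV build drives ATP synthase. The growth plate has few vessels, and its chondrocytes are known for drawing much of their ATP from glycolysis. AMPK, a substrate of LKB1, is known in other tissues to raise the expression of mitochondrial genes.

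Little separated the mutant from the control arrays in the oxidative phosphorylation genes, and the called differences ran in both directions. Ndufa4l2, a hypoxia-inducible relative of a complex IV subunit, was 2.27-fold higher in the mutant samples. Cyc1, Cox5a, Ndufs8 and Cox6a1, a subunit each of complexes III, IV, I and IV, fell by less than 0.5 on the log2 scale. No gene of complex II, ATP synthase or the complex I accessory group passed the test. Complex II has 4 genes, too few for a count of 0 to set it apart from all genes tested.

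Values are levels on the scale log2(intensity + 1), and differences are mutant minus control on that scale. A gene is called where its limma p, adjusted by Benjamini-Hochberg over all 17020 genes tested, is below 0.05. Of the 91 genes 90 were tested. The testis isoform Cox7b2 lay in the dimmest 25% of probe sets and was left out. Of the 90, 5 were called (5.56%), against 14.7% of all genes tested. The mutant samples were higher in 1 of them and lower in 4, where 7.84% of all genes tested were called higher and 6.82% lower. After quantile normalisation the split was 2 higher and 3 lower, and after median centring 2 higher and 4 lower. At an unadjusted p below 0.05 there were 6 higher genes (6.67%, against 2718 of the 17020 genes tested, or 16%) and 14 lower genes (15.6%, against 13.5% of all genes tested).

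The median difference of the 90 genes was -0.083, against 0.029 for all genes tested, and 62 of them had a negative difference (68.9%, against 45.0% of all genes tested). The middle part of the set, between the 25% and 75% points, ran between -0.18 and 0.02, and for all genes it ran between -0.14 and 0.18. Overlap between the groups was absent for 30 genes (33.3%, against 36.7% of all genes tested). These were 23 genes that were lower in the mutants (25.6%, against 16.7% of all genes) and 7 that were higher (7.78%, against 20.0% of all genes). Only Ndufa4l2 differed by more than 0.5, which corresponds to 1.41-fold, while 2320 of all genes tested (13.6%) did. The 95% confidence interval of the difference lay within -0.5 and 0.5 for 70 of the 90 genes, and within -1 and 1 for 89. A 2-fold change was thus outside the interval of 89 genes, Ndufa4l2 being the exception. In bulk RNA, a lower share of a cell type and less RNA per cell cannot be told apart.

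**Figure D1:**
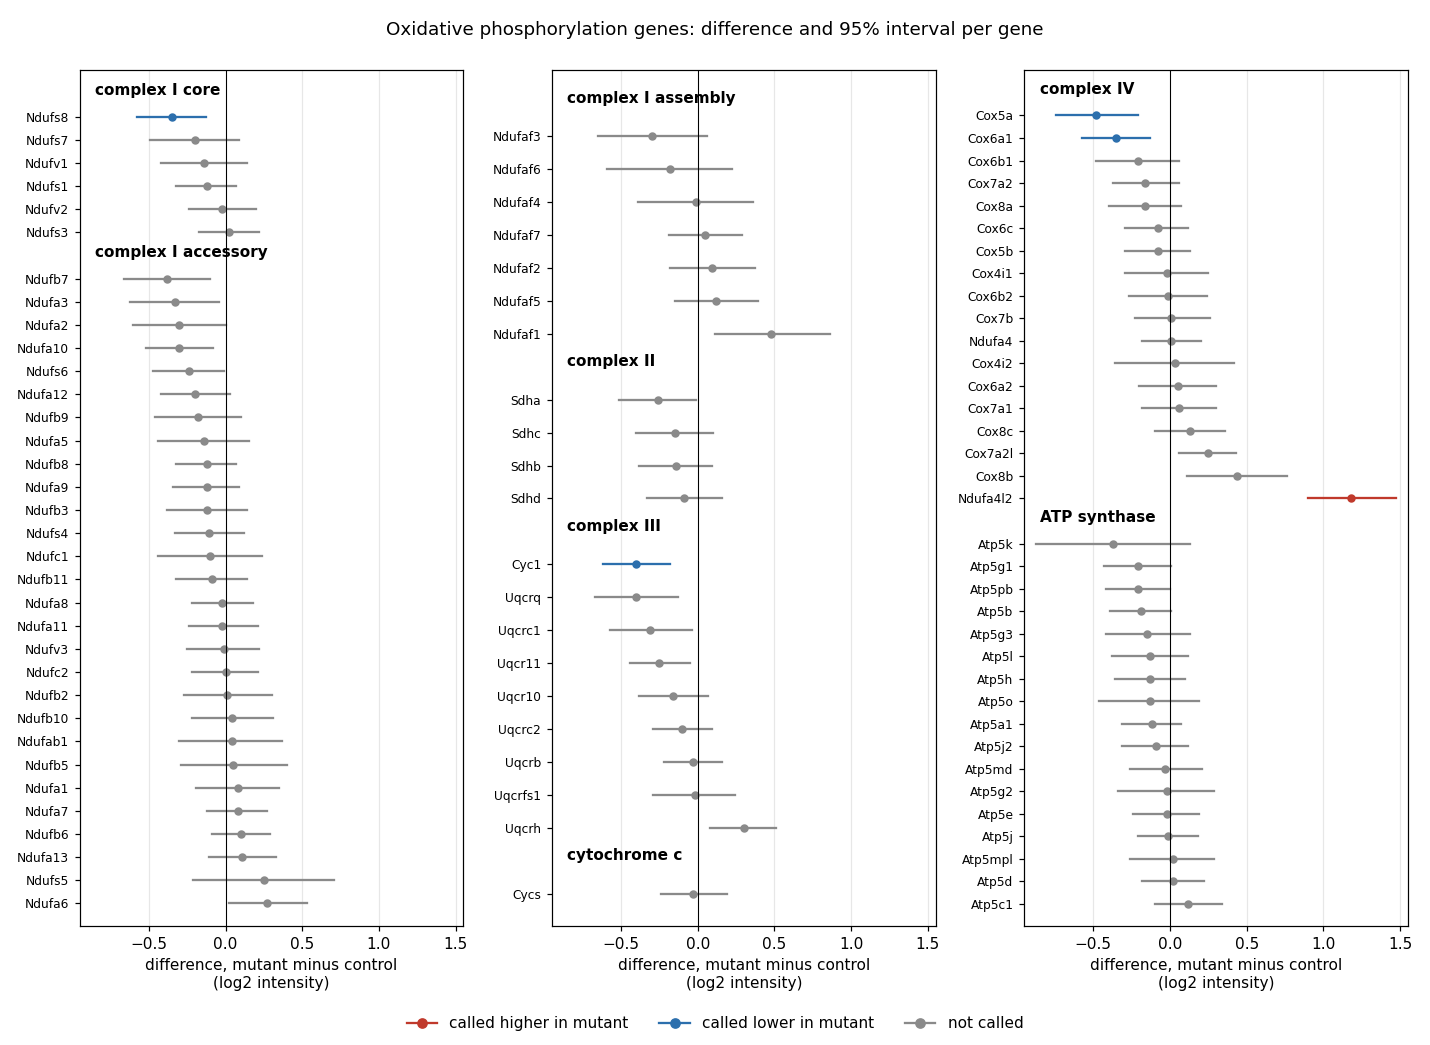
Difference of each of the 90 oxidative phosphorylation genes tested, mutant minus control in log2 intensity, as a point with its 95% confidence interval as a line, by complex. Most genes lie within 0.25 of 0, Ndufa4l2 stands alone at 1.18, and the lowest is Cox5a at -0.48.

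On the 3 mutant arrays Stk11 itself (probe set 10364683) was at 7.39, 7.51 and 7.52, below 8.68, 9.08 and 9.67 on the 3 control arrays, a difference of -1.67 (SE 0.22, n = 3 per group, limma adjusted p = 0.00387). The position of its probes with respect to the mutated exons was not analysed, so the level may not check the genotype. Across the 3 control arrays Stk11 rose in the same order as the marrow marker mean given below. The part of marrow cells in its difference was not tested. All 12 chondrocyte markers were above background on all arrays, where background is the 95% point of 1023 olfactory receptor probe sets on an array (6.40 to 6.73). The arrays also differed in cells other than chondrocytes. The mean of 26 bone marrow markers (erythroid, neutrophil and B lymphoid) was 6.15, 6.20 and 5.89 on mutant arrays, against 8.47, 9.18 and 9.88 on control arrays, and 5 of the 26 were above background on all mutant arrays, against 23 on all control arrays. The mean of 9 proliferation genes was 8.03 on each mutant array, against 8.87, 9.33 and 9.97 on control arrays. Over the 90 oxidative phosphorylation genes the mean was 8.55, 8.54 and 8.48 on mutant arrays and 8.58, 8.53 and 8.64 on control arrays. Control replicate 3, the array with the highest marrow level, was the highest control array for 55 of the 90 genes (61.1%, against 44.4% of all genes), and the median difference was -0.052 without it. Without control replicates 2 and 3, which leaves the control array with the least marrow signal and allows no test, the median was -0.064. The part of these cells in the differences of single genes was not tested, beyond the values without those arrays given below.

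**Figure D2:**
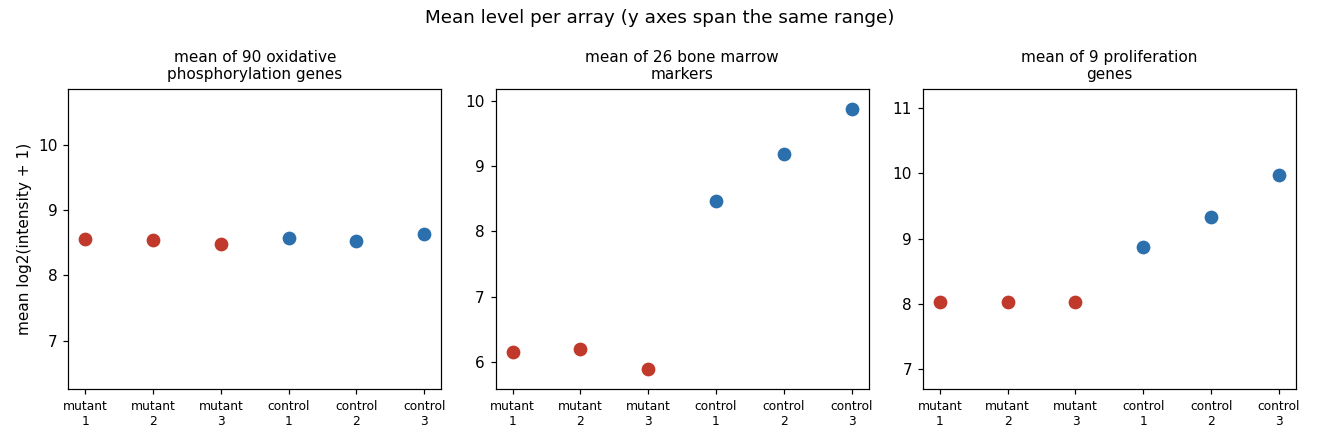
Mean level, in log2(intensity + 1), of the 90 oxidative phosphorylation genes, of 26 bone marrow markers and of 9 proliferation genes on each array. The oxidative phosphorylation genes lie between 8.48 and 8.64 on all 6 arrays, while the marrow markers lie between 5.89 and 6.20 on mutant arrays and between 8.47 and 9.88 on control arrays.

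Promoters are shown for 3 of the 5 called genes, Ndufs8, Cox5a and Cox6a1, since the nuclear respiratory factor NRF1 and the ETS factor GABP are textbook regulators of this gene set. The windows are RefSeq sequence of assembly GRCm38.p6, 250 bases before to 50 bases after the annotated start, and 74 of the 91 genes were matched. The called genes Cyc1 and Ndufa4l2 were not searched. Each is printed 5′ to 3′ on the gene's own strand, with motif matches in capitals: the NRF1 palindrome, which is GCGCA followed directly by its reverse complement TGCGC, and the ETS motif CCGGAAG, which reads CTTCCGG on the other strand. Ndufs8 lies at chr19:3912725-3913024 on the minus strand, Cox5a at chr9:57520982-57521281 on the plus strand and Cox6a1 at chr5:115348909-115349208 on the minus strand.
Ndufs8: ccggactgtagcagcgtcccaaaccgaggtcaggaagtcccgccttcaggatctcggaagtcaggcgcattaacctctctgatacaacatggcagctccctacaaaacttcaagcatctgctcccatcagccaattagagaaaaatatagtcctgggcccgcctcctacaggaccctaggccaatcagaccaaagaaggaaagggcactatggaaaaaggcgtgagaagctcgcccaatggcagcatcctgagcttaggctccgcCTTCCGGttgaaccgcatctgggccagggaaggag
Cox5a: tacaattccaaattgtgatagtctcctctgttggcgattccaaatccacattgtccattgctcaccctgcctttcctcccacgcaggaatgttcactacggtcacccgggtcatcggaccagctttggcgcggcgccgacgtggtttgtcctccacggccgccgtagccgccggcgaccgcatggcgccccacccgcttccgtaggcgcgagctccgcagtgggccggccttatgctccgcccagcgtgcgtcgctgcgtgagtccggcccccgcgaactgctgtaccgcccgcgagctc
Cox6a1: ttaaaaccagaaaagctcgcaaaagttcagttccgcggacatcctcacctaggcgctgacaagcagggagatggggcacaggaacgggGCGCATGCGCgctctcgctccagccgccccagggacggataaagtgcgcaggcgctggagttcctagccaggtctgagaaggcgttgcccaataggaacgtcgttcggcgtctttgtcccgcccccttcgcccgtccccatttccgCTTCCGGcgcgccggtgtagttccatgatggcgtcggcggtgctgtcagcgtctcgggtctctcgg
The Ndufs8 window holds the ETS motif at bases 266 to 272, just after the annotated start. That of Cox6a1 holds the NRF1 palindrome at bases 89 to 98 and the ETS motif at bases 235 to 241, and that of Cox5a holds neither letter string. Across the gene set the NRF1 palindrome was found for 7 of the 74 genes with a window (9.46%), against 290 of 27025 genes with a window (1.07%). A gene counted if any of its windows matched. The 27025 genes include ones that were not tested here, so they are an unlike set. The ETS motif, searched on both strands, can share at most an end base with the palindrome. It was found for 18 of the 74 genes (24.3%), against 9.93% of the 27025. Of the genes with the palindrome, Atp5g2, Atp5k, Cox6a1, Ndufa11, Ndufaf4, Ndufaf5 and Uqcrc1, only Cox6a1 was called, of the 3 called genes searched. A match describes letters in a window and is no evidence of binding.

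Complex I takes electrons from NADH. Of its 34 subunits tested 1 was called (2.94%, against 14.7% of all genes tested), with a median difference of -0.095. That was Ndufs8, a core subunit that holds iron-sulfur clusters on the path to ubiquinone. It was at 8.69, 8.70 and 8.54 on mutant arrays, against 9.04, 8.88 and 9.07 on control arrays. All mutant arrays were below all control arrays, the closest pair being mutant replicate 2 and control replicate 2. The difference was -0.35 (SE 0.10, 95% interval -0.58 to -0.13, n = 3 per group), with a limma adjusted p of 0.0491. It was -0.40 without control replicates 2 and 3. The call was lost when any 1 array was left out, with adjusted p between 0.0684 and 0.194, after quantile normalisation (0.0573), after median centring (0.0545) and with no filter (0.0627).

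The other core subunits measured were not called. Ndufv1, which binds NADH and FMN, was at 8.08, 8.07 and 8.11 on mutant arrays and at 8.03, 8.18 and 8.46 on control arrays, so that the groups overlapped (difference -0.14, 95% interval -0.42 to 0.14). Ndufs1, the large iron-sulfur subunit, was at 7.33, 7.24 and 7.26 on mutant arrays, just below 7.37, 7.36 and 7.48 on control arrays (difference -0.12, 95% interval -0.32 to 0.07). For Ndufs7, which carries the last iron-sulfur cluster before ubiquinone, control replicate 3 stood apart: levels were 10.46, 10.36 and 10.29 on mutant arrays and 10.45, 10.45 and 10.82 on control arrays. Its difference was -0.20 with all arrays and -0.07 without control replicates 2 and 3. The smallest differences were those of Ndufv2, an iron-sulfur subunit (-0.02, 95% interval -0.24 to 0.20), and Ndufs3, a subunit of the ubiquinone-facing arm (0.02, 95% interval -0.17 to 0.22).

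None of the 28 accessory subunits, which surround and stabilise the core, was called by limma. An unadjusted p below 0.05 was found for 6, 1 higher (3.57%, against 16% of all genes tested) and 5 lower (17.9%, against 13.5%). The median difference of the 28 was -0.053. The groups did not overlap for 2 higher and 6 lower genes, or 7.14% and 21.4%, where all genes tested gave 20.0% and 16.7%. Nearest to the threshold was Ndufb7, a subunit at the outer face of the membrane arm, with 6.98, 7.21 and 7.09 on mutant arrays, against 7.32, 7.42 and 7.68 on control arrays. The mutant arrays were all below the control arrays, with a difference of -0.38 (SE 0.12, limma adjusted p = 0.0776). After median centring it was called, with adjusted p = 0.0467. Ndufa10, in the membrane arm, was at 8.88, 8.78 and 8.75 on mutant arrays, against 9.07, 9.01 and 9.24 on control arrays (difference -0.30, SE 0.10, limma adjusted p = 0.0791). Ndufa3, an accessory membrane subunit, was at 9.34, 9.10 and 8.89 on mutant arrays, against 9.38, 9.41 and 9.52 on control arrays (difference -0.33, limma adjusted p = 0.125). In both genes no mutant array reached a control array. The opposite order was seen for Ndufa6, a LYR-motif subunit that binds the acyl carrier Ndufab1, at 8.58, 8.53 and 8.34 on mutant arrays and 8.33, 8.07 and 8.24 on control arrays (difference 0.27, limma adjusted p = 0.144), the groups nearly touching. Ndufab1 itself had a difference of 0.04 with overlapping groups. The other accessory subunits ran between -0.30 (Ndufa2) and 0.25 (Ndufs5), and Ndufb2 and Ndufs5 were above background on no array.

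None of the 7 assembly factors was called by limma. At an unadjusted p below 0.05 there was 1, higher in the mutants (14.3%, against 16% of all genes tested). Ndufaf1, needed to build the membrane arm, was at 7.80, 7.47 and 7.65 on mutant arrays and at 7.47, 6.89 and 7.11 on control arrays. Mutant replicate 2 and control replicate 1 were level, so the groups met, and the difference was 0.48 (SE 0.16, limma adjusted p = 0.0891). It was called without control replicate 1 (adjusted p = 0.0164), and the difference was 0.17 without control replicates 2 and 3. Ndufaf3 had the lowest difference of the assembly factors, at -0.30 with overlapping groups. Ndufaf2, Ndufaf5, Ndufaf6 and Ndufaf7 were above background on no array.

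Complex II, succinate dehydrogenase, also works in the TCA cycle. None of its 4 genes was called by limma, where 14.7% of all genes tested were. With 4 genes, a count of 0 does not set complex II apart from all genes tested. At an unadjusted p below 0.05 there was 1, lower in the mutants, where 13.5% of all genes tested were lower. All 4 had a negative difference (45.0% of all genes tested did), with a median of -0.146. Sdha, the flavoprotein that oxidises succinate, was at 9.22, 9.28 and 9.09 on mutant arrays, against 9.35, 9.41 and 9.61 on control arrays. The mutant arrays were all lower, with a difference of -0.26 (95% interval -0.51 to -0.01, limma adjusted p = 0.15). The groups overlapped for the iron-sulfur subunit Sdhb (-0.14) and for the membrane anchors Sdhc (-0.15) and Sdhd (-0.09).

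Complex III hands electrons from ubiquinol to cytochrome c. Of its 9 genes 1 was called (11.1%, against 14.7% of all genes tested). A negative difference was found for 8 (88.9%, against 45.0% of all genes tested), and the median was -0.157. Cyc1, cytochrome c1, carries the haem that reduces cytochrome c. It was at 8.73, 8.80 and 8.78 on mutant arrays, against 9.17, 9.05 and 9.30 on control arrays. The mutant arrays lay close together and all below the controls, and the difference was -0.40 (SE 0.09, 95% interval -0.62 to -0.18, limma adjusted p = 0.0297). It was again -0.40 without control replicates 2 and 3. The call was lost without mutant replicate 1, 2 or 3, with adjusted p of 0.106, 0.0925 and 0.115.

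The groups did not overlap for 5 lower genes of complex III (55.6%, against 16.7% of all genes tested) and 1 higher (11.1%, against 20.0%). Uqcrq, a small subunit near cytochrome b, was at 7.96, 8.16 and 7.79 on mutant arrays, against 8.32, 8.48 and 8.31 on control arrays (difference -0.40, SE 0.12, limma adjusted p = 0.061). It was called after median centring (adjusted p = 0.0491) and with the filter at the median (adjusted p = 0.0483). Uqcrc1, a core protein on the matrix side, was at 8.64, 8.50 and 8.49 on mutant arrays, against 8.72, 8.78 and 9.06 on control arrays (difference -0.31, limma adjusted p = 0.116). For both, every mutant array was below every control array. Uqcrh, the hinge protein that binds cytochrome c1, ran the other way, at 9.16, 9.02 and 8.95 on mutant arrays and 8.77, 8.78 and 8.69 on control arrays (difference 0.30, SE 0.09, limma adjusted p = 0.0733). Its mutant arrays were all above the controls, opposite to those of Cyc1. Uqcrfs1, the Rieske iron-sulfur protein, differed by -0.02 (95% interval -0.29 to 0.24), and Uqcrb by -0.03.

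Cytochrome c, Cycs, is the soluble carrier between complexes III and IV. It was at 10.71, 10.89 and 10.91 on mutant arrays and 10.83, 10.87 and 10.89 on control arrays. The groups overlapped, and the difference was -0.03 (95% interval -0.24 to 0.19).

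Complex IV reduces oxygen, and many of its nuclear subunits exist as a widespread and a tissue-restricted isoform. Of its 18 genes tested 1 was called higher and 2 lower (16.7% called, against 14.7% of all genes tested). The median difference was -0.003, and 0.012 after quantile normalisation. Among the 11 widespread subunits, Cox5a, which sits on the matrix side of the catalytic core, was at 7.83, 7.64 and 7.46 on mutant arrays, against 8.07, 8.14 and 8.15 on control arrays. The controls were close together, and all mutant arrays were lower by varying amounts. The difference was -0.48 (SE 0.11, 95% interval -0.74 to -0.21, limma adjusted p = 0.03). It was -0.43 without control replicates 2 and 3. The call was lost without mutant replicate 2 (adjusted p = 0.101), mutant replicate 3 (0.118), control replicate 2 (0.0953) or control replicate 3 (0.0527).

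Cox6a1, the widespread isoform of a small subunit at the dimer interface, was at 10.39, 10.30 and 10.34 on mutant arrays, against 10.77, 10.55 and 10.75 on control arrays. No mutant array reached control replicate 2, the lowest control. The difference was -0.35 (SE 0.09, 95% interval -0.57 to -0.13, limma adjusted p = 0.0491), and it was -0.42 without control replicates 2 and 3. The call was lost when any 1 array was left out, with adjusted p between 0.0543 and 0.167, after median centring (0.071) and with no filter (0.0629).

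Other widespread subunits of complex IV were not called. Cox4i1, the regulatory subunit that binds ATP, was at 8.63, 8.66 and 8.45 on mutant arrays and 8.58, 8.44 and 8.78 on control arrays, with overlapping groups (difference -0.02, 95% interval -0.29 to 0.25). Cox5b, a zinc-binding subunit, differed by -0.08 (95% interval -0.29 to 0.13). Ndufa4, long listed under complex I and now known as a complex IV subunit, differed by 0.01 (95% interval -0.18 to 0.20). Cox7a2l, which joins complexes III and IV into supercomplexes, was at 7.74, 7.68 and 7.69 on mutant arrays, above 7.45, 7.44 and 7.48 on control arrays (difference 0.25, SE 0.08, limma adjusted p = 0.0803). Its groups were separate with a narrow spread in each, and its other probe set differed by 0.16. For Cox6b1, an intermembrane-space subunit, the mutant arrays were at 9.95, 9.96 and 9.90 and the control arrays at 10.02, 10.03 and 10.38, where control replicate 3 alone stood off (difference -0.21, and -0.08 without control replicates 2 and 3).

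**Figure D3:**
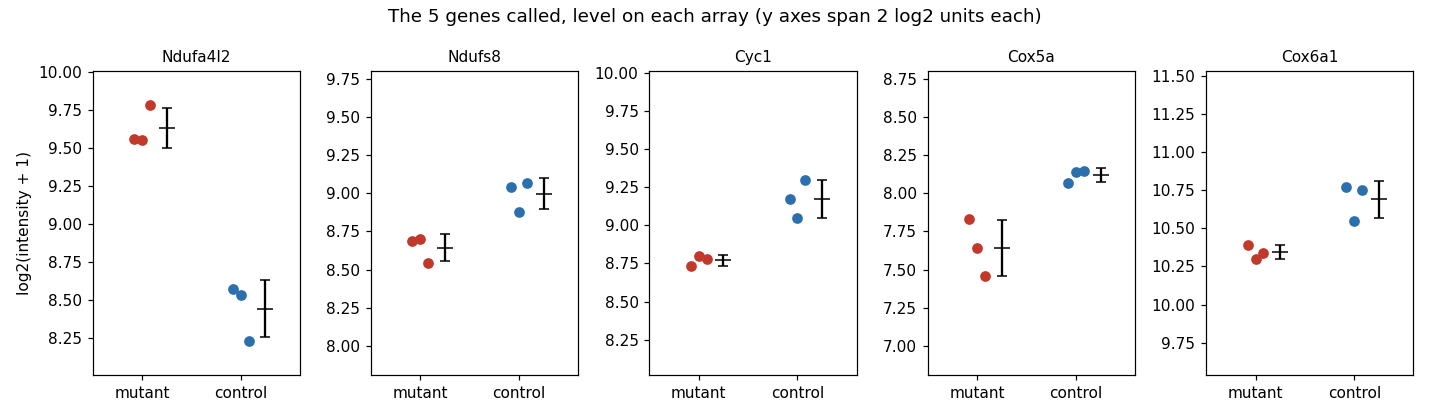
Level of the 5 called genes on each array in log2(intensity + 1), with the mean and SD of the 3 arrays beside the points. Ndufa4l2 is at 9.55 to 9.78 on mutant arrays and 8.23 to 8.57 on control arrays, and for the other genes every mutant array lies below every control array.

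Ndufa4l2, a paralog of Ndufa4 and a target of the hypoxia-inducible factor HIF1, had the largest difference of the 90 genes. It was at 9.56, 9.55 and 9.78 on mutant arrays, against 8.57, 8.53 and 8.23 on control arrays. Every mutant array was far above the highest control array, relative to the spread within each group. The difference was 1.18 (SE 0.12, 95% interval 0.90 to 1.47), or 2.27-fold higher in mutant samples, with a limma adjusted p of 0.00139. It was called in all 16 alternatives that gave a test, and the difference was 1.06 without control replicates 2 and 3. In the mutant arrays the mean of the endothelial markers was 7.13, 7.45 and 7.42, against 6.41, 6.43 and 6.59 in control arrays. The mean of fibrous tissue and tendon markers was 9.96, 10.00 and 10.06 in mutant arrays, against 9.22, 9.29 and 8.97 in control arrays. All 8 fibrous markers were above background on all mutant arrays and 5 on all control arrays, and for the 7 endothelial markers the counts were 4 and 3, with Tek above it on no array. The mean of 8 macrophage and osteoclast markers was 8.59, 8.15 and 8.17 in mutant arrays, against 7.41, 7.24 and 7.37 in control arrays, with 8 and 6 of them above background on all arrays of the group. The mean of 7 adipocyte markers was 6.72, 6.57 and 6.63 in mutant arrays, against 6.18, 6.53 and 6.38 in control arrays. Of these 4 were above background on all mutant arrays and 0 on all control arrays, Fabp4 (1.09, limma adjusted p = 0.0108) and Lpl (0.77, limma adjusted p = 0.0153) were called higher, and Adipoq, Cidec and Ucp1 were above background on no array. Among the 12 chondrocyte markers Matn1 was called higher (1.28, limma adjusted p = 0.0248) and Col10a1 lower (-0.50, limma adjusted p = 0.0114). The part of these cells in the Ndufa4l2 difference was not tested.

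The other restricted isoforms of complex IV were mostly at background. Cox4i2, the alternative form of the regulatory subunit, known from lung and from cells low in oxygen, was well above background on all arrays. It was at 10.12, 10.17 and 10.11 on mutant arrays and 10.50, 10.00 and 9.82 on control arrays. The controls spread to both sides of the mutants, with a difference of 0.03 (95% interval -0.36 to 0.42). The striated muscle isoforms Cox6a2, Cox7a1 and Cox8b and the testis isoforms Cox7b2 and Cox8c exceeded the background point on no array, and the testis isoform Cox6b2 did on 5. Within that background range Cox8b was at 6.25, 6.59 and 6.23 on mutant arrays, all above 5.72, 6.05 and 6.00 on control arrays. Its difference was 0.44 (SE 0.14, limma adjusted p = 0.0778), and it was called after quantile normalisation (adjusted p = 0.0439) and median centring (adjusted p = 0.0497). Of the 11 skeletal muscle markers, Myl1, Myh4, Myh1, Atp2a1 and Mb were likewise above background on no array, while others such as Acta1 (8.61, 8.75 and 8.65 on mutant arrays, against 8.69, 8.35 and 8.32 on control arrays), Tnni2 and Tnnt3 were above it on all. Of the 10 muscle markers tested 9 had a positive difference (10.0% had a negative one, against 45.0% of all genes tested). Myl1 (0.86, limma adjusted p = 0.0104) and Actn3 (0.44, limma adjusted p = 0.0374) were called higher (20.0%, against 7.84% of all genes tested). Actn3 was above background on no control array. The mean over all 11 muscle markers was 6.83, 6.95 and 6.76 on mutant arrays, against 6.62, 6.72 and 6.68 on control arrays. The part of muscle in the Cox8b difference was not tested.

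**Figure D4:**
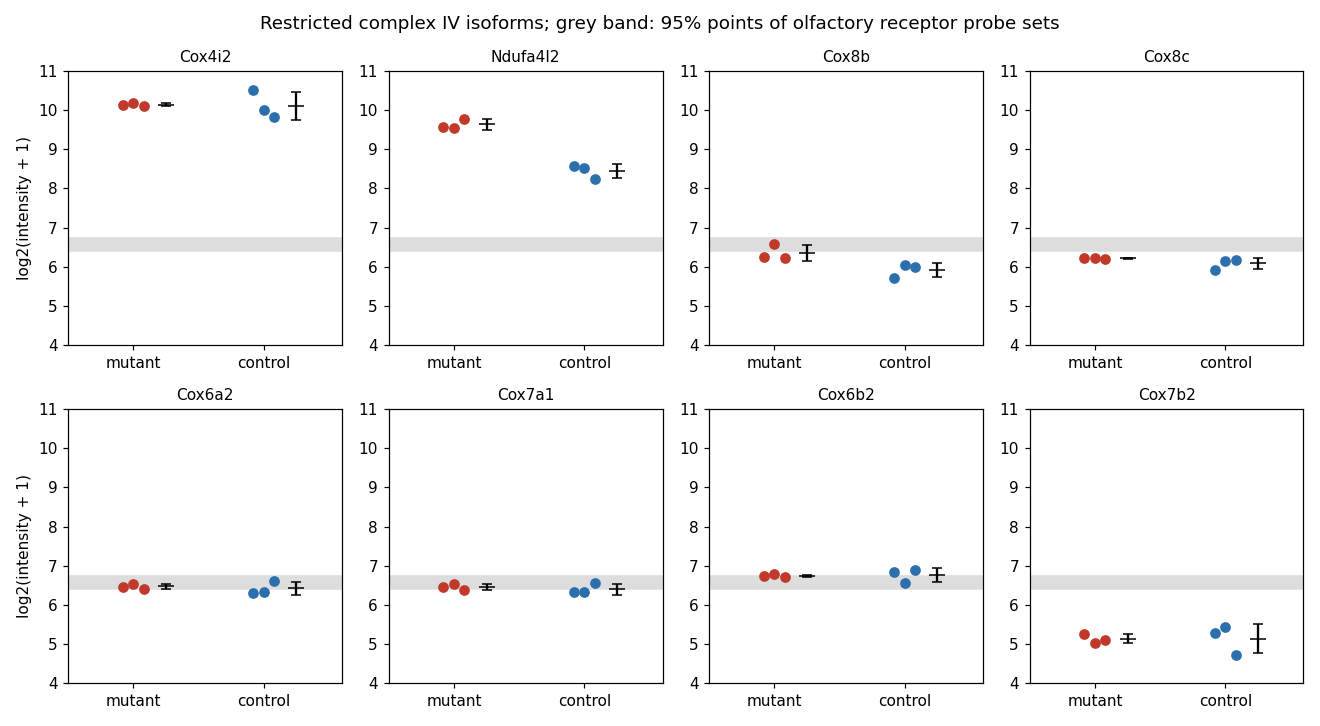
Level of the 8 restricted complex IV isoforms on each array in log2(intensity + 1), with the mean and SD of 3 arrays beside the points, over a grey band that spans the background points of the 6 arrays. Ndufa4l2 and Cox4i2 lie above the band, Cox6b2 lies at its upper edge, with arrays on both sides of it, and the others lie within or below it. The groups are well apart for Ndufa4l2.

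ATP synthase turns the proton gradient into ATP. None of its 17 genes was called by limma. At an unadjusted p below 0.05 there was 1, lower in the mutants (5.88%, against 13.5% of all genes tested). A negative difference was found for 14 (82.4%, against 45.0% of all genes tested), and the median was -0.115. The groups did not overlap for 5 lower genes (29.4%, against 16.7% of all genes tested) and 0 higher (20.0% of all genes tested). Atp5b, the catalytic beta subunit of the F1 head, was at 11.19, 11.18 and 11.29 on mutant arrays, against 11.35, 11.40 and 11.48 on control arrays. The mutant arrays were all lower, by a difference of -0.19 (95% interval -0.39 to 0.01). Its partner Atp5a1, the alpha subunit, was at 10.44, 10.38 and 10.45 on mutant arrays, against 10.52, 10.51 and 10.59 on control arrays, again without overlap (difference -0.12, 95% interval -0.31 to 0.07). Atp5c1, the gamma subunit that forms the rotating stalk, had overlapping groups and a difference of 0.12 (95% interval -0.10 to 0.34).

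The gene with the smallest p of ATP synthase was Atp5pb, subunit b of the fixed outer stalk. It was at 9.10, 8.98 and 8.98 on mutant arrays, against 9.28, 9.14 and 9.27 on control arrays (difference -0.21, limma adjusted p = 0.161), with every mutant array lower. Atp5g1, Atp5g2 and Atp5g3 encode the same mature c subunit of the membrane rotor. Atp5g1 was at 10.16, 10.12 and 10.12 on mutant arrays, below 10.48, 10.30 and 10.24 on control arrays (difference -0.21). The groups overlapped for Atp5g2 (-0.02) and Atp5g3 (-0.15). Atp5k, subunit e, had the most negative difference of ATP synthase, -0.37, and it was -0.00 without control replicates 2 and 3. Its level was 6.79, 6.74 and 6.50 on mutant arrays and 6.68, 6.90 and 7.55 on control arrays, so that control replicate 3 alone stood high.

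Genes that feed or build the complexes were set beside these. Among 16 tested genes of the TCA cycle and pyruvate dehydrogenase, 1 was called (6.25%, against 14.7% of all genes tested), with a median of -0.115. That was Cs, citrate synthase, which opens the cycle. It was at 8.89, 8.89 and 9.0 on mutant arrays, against 9.51, 9.44 and 9.77 on control arrays. All mutant arrays were below all control arrays, and the difference was -0.65 (SE 0.11, 95% interval -0.91 to -0.39, limma adjusted p = 0.00917). It was the only called gene of the metabolic and assembly lists that stayed called in each fit without 1 array, with an adjusted p of at most 0.0446, and its difference was -0.59 without control replicates 2 and 3.

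Of 16 tested genes of complex IV assembly and copper delivery, 2 were called higher and 2 lower, with a median of -0.119. The called share was above the 14.7% of all genes tested. It was also above it in each direction (7.84% of all genes tested were called higher and 6.82% lower). Surf1, an assembly factor, was at 7.81, 7.61 and 7.73 on mutant arrays, against 7.30, 7.15 and 7.27 on control arrays (difference 0.48, limma adjusted p = 0.0165). Lrpprc, which stabilises mitochondrial mRNAs, was at 6.93, 7.10 and 7.04 on mutant arrays, against 7.31, 7.42 and 7.57 on control arrays (difference -0.41, limma adjusted p = 0.0366). Both genes had separate groups, in opposite directions. Sco1, a copper chaperone, rose by 0.39 (limma adjusted p = 0.0298), and Cox18, which inserts a mitochondrially encoded subunit, fell by 0.36 on the log2 scale (limma adjusted p = 0.026). Of 9 genes of complex III and ATP synthase assembly 2 were called (22.2%, against 14.7% of all genes tested), with a median of 0.084. Lyrm7 rose by 0.48 (limma adjusted p = 0.0134) and Bcs1l fell by 0.40 on the log2 scale (limma adjusted p = 0.0167). Both proteins act in the insertion of the Rieske protein into complex III. Each of these 6 calls was lost in some fits without 1 array, with adjusted p of up to 0.0797 for Surf1, 0.128 for Lrpprc, 0.113 for Sco1, 0.122 for Cox18, 0.064 for Lyrm7 and 0.0887 for Bcs1l. Without control replicates 2 and 3 the Lrpprc difference was -0.28.

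None of 10 further complex I and II assembly genes was called by limma, and none of 12 regulators of mitochondrial biogenesis. The medians were -0.024 and -0.055. At an unadjusted p below 0.05 there were 2 of the 10 (10.0% higher and 10.0% lower). Of the 12 there were 3 (8.33% higher and 16.7% lower). Over all genes tested the shares were 16% higher and 13.5% lower. Ppargc1a, the coactivator PGC-1alpha, differed by -0.22 (limma adjusted p = 0.349) and was above background on no array. The same held for the regulators Ppargc1b and Tfam, and for the assembly genes Tmem126b, Nubpl, Sdhaf3 and Sdhaf4. Nrf1, the factor whose motif was searched above, was at 6.96, 7.15 and 7.27 on mutant arrays and 7.21, 7.58 and 7.80 on control arrays, with overlapping groups (difference -0.40, limma adjusted p = 0.143). Among 76 tested genes of the mitochondrial ribosome 1 was called higher and 2 lower (3.95% called, against 14.7% of all genes tested), with a median of -0.031. These were Mrps10 (difference 0.65, limma adjusted p = 0.0264), Mrpl34 (-0.50, 0.0241) and Mrpl57 (-0.46, 0.0243), and without mutant replicate 3 their adjusted p was 0.11, 0.0849 and 0.112. None of the 13 mitochondrially encoded subunits was listed with a probe set of 1 gene, and they were not analysed here.

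The inner membrane carriers that exchange ADP for ATP were called in opposite directions. Slc25a4, the isoform known from heart and muscle, was at 9.96, 10.00 and 9.91 on mutant arrays, against 9.63, 9.64 and 9.53 on control arrays (difference 0.36, SE 0.08, limma adjusted p = 0.0303). Slc25a5, the isoform known from proliferating cells, was at 10.47, 10.48 and 10.59 on mutant arrays, against 10.91, 10.80 and 11.02 on control arrays (difference -0.39, SE 0.09, limma adjusted p = 0.0318). The groups were separate for both genes. The proliferation genes given above were lower in the mutants, as was Slc25a5. Across the control arrays the mean of the proliferation genes was lowest on replicate 1, while Slc25a5 was lowest on replicate 2. The part of proliferating cells in the Slc25a5 difference was not tested. Of the muscle markers given above, Myl1 and Actn3 were called higher, as was Slc25a4. However, Myl1 was above background on no array and Actn3 on no control array. The other muscle markers tested were not called. Pvalb, another of these markers, had a negative difference (-0.31). The part of muscle in the Slc25a4 difference was not tested. Without control replicates 2 and 3, the controls with the higher proliferation and marrow levels, the difference was 0.33 for Slc25a4 and -0.39 for Slc25a5. Both calls were lost in some fits without 1 array, with adjusted p of up to 0.121 for Slc25a4 and 0.117 for Slc25a5. The phosphate carrier Slc25a3 differed by 0.02 (95% interval -0.16 to 0.21).

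**Figure D5:**
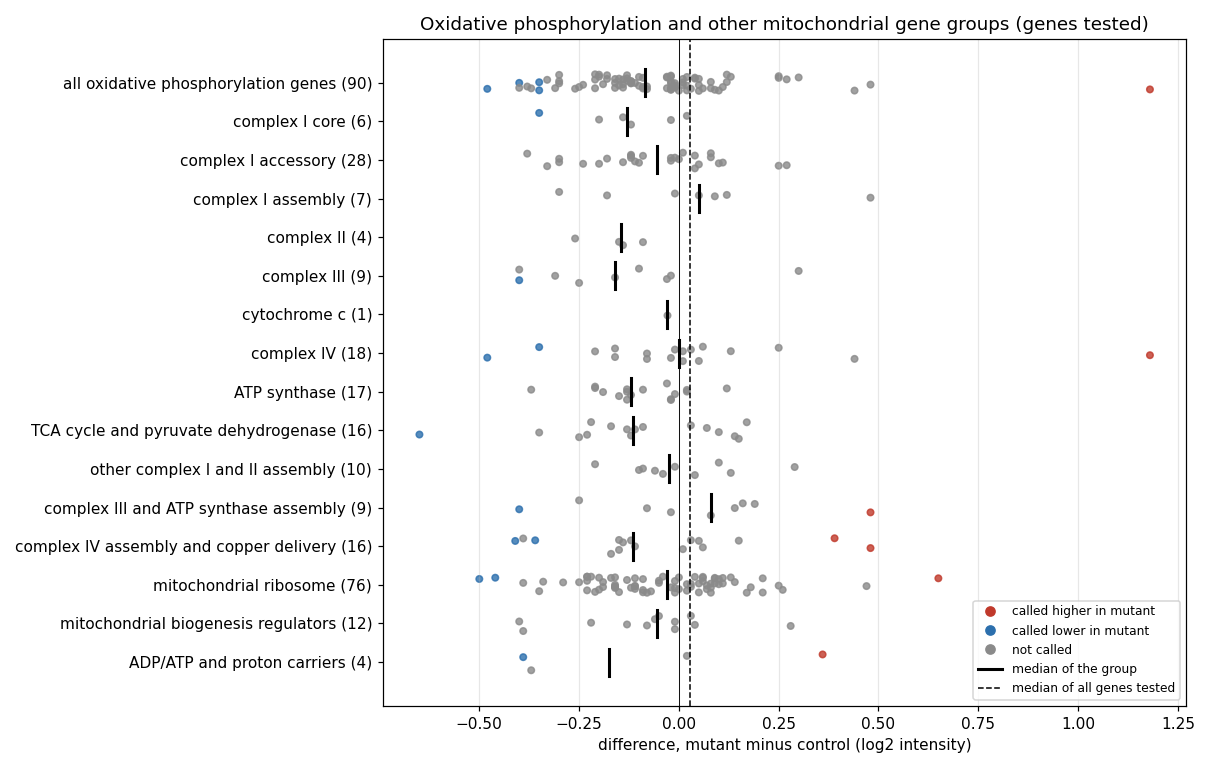
Difference, mutant minus control in log2 intensity, of every gene tested in each oxidative phosphorylation group and in 7 other mitochondrial gene lists, 1 point per gene, with the median of each group as a bar and that of all genes tested as a dashed line. Group medians lie between -0.172 and 0.084, and the called genes fall on both sides of 0.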

How the data were processed

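Total RNA from growth plate chondrocytes (300 ng per sample, per the labels' protocols) was hybridised to 6 Affymetrix arrays. The authors deposited probe set intensities on a linear scale, with array medians of 82.4 to 90.5; the sources used here do not give the probe summary, background correction or normalisation. All value columns matched a sample by its label, and 0 were left out. The platform annotation names 1 gene for 21789 of 35512 probe sets, several for 1621 and lists no gene for 12102, and 21698 matched the RefSeq gene table (GRCm38.p6) by gene number. Intensities were taken as log2(intensity + 1), which understates the fold of dim genes, with no further normalisation. Probe sets of 1 gene outside the lowest 25% of means (below 5.56) were kept, and a gene with several was represented by its brightest.

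The mutant group was tested against the control group in R 4.3.3 by limma 3.58.1 (lmFit, eBayes, two-sided, no covariate), with Benjamini-Hochberg adjustment over 17020 genes. Arrays of 17020 genes were simulated for this comparison in 5 runs. The fit called 32.2% of 335 genes changed by 0.5 (log2) and 75.5% of 335 genes changed by 1. Of 84100 simulated without a change it called 30. Few genes were changed in the simulation, while 14.7% of all genes tested were called in the data, so these rates need not hold for the data. The 3 arrays per group limit the precision, with a median SE of 0.103 for the oxidative phosphorylation genes. No set test was run. The genes and lists were chosen with earlier results of these data known. By rule, the text names in each complex up to 6 called genes (or the 2 with the smallest p), the catalytic and electron-carrying subunits, the complex IV isoforms and up to 3 called genes of each list; Ndufa3, Ndufa6, Ndufab1, Ndufa2, Ndufs5, Ndufb2, Ndufaf2, Ndufaf5, Ndufaf6, Ndufaf7, Uqcrq, Uqcrh, Uqcrc1, Uqcrb, Atp5g1, Atp5g2, Atp5g3, Atp5k, Cox18, Slc25a3, Ppargc1a, Nrf1 and further genes of the motif and background lists were picked with their values in view. Each result was recomputed with arrays left out, a replicate block, array weights, an intensity trend, a pseudocount of 16, averaged probe sets, the platform's own symbols, median centring, quantile normalisation, and the filter removed or moved to the median.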

Additional observations from a re-analysis of the deposited data

How the results depend on the processing

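Over 17 alternatives the median difference of the oxidative phosphorylation genes stayed negative, from -0.1 to -0.047, while that of all genes ran from 0.012 to 0.051. None of the 5 called genes changed sign, and 39 of the 90 did so under some setting. Ndufa4l2 was called in all 16 alternatives with a test; the number called higher was 2 after quantile normalisation and median centring, 10 with array weights and 1 to 2 without 1 array. The number called lower was 2 with no filter, 21 with array weights and 0 to 3 without 1 array; where it was 0 by limma, without mutant replicate 2 or 3, the count at an unadjusted p below 0.05 was 9 and 6. Array weights, whose estimation failed to converge, gave 8006 calls over all genes, and there were 936 to 3282 without 1 array. With the replicate block, 2 oxidative phosphorylation genes were called higher and 0 lower, and 2031 of all genes were called. At an unadjusted p below 0.05, 7 oxidative phosphorylation genes were higher and 9 lower with that block. Ndufaf1 joined Ndufa4l2 (adjusted p = 0.0357), and Cyc1 (0.0621), Cox5a (0.0596), Ndufs8 (0.0991) and Cox6a1 (0.0764) were not called. Same-numbered samples correlated at 0.08, 0.213 and -0.083 in their deviations from the group means. With so few pairs these values cannot decide whether same-numbered samples share more than a number. The fit without control replicates 2 and 3 gives no test. Of 18 genes with several probe sets, the signs differed in 3. Probe sets at background, 11 of 91 genes on every array, measure no level. For most differences of 0.25 or less in either direction the 95% interval included 0.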

Other observations

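The genes that had only shared probe sets were measured in these samples without a test. The 3 probe sets shared by Cox7c, a complex IV subunit, and Gm12338 lay between 11.80 and 11.82 on mutant arrays and between 11.73 and 11.79 on control arrays, with differences of 0.04 to 0.05. Both probe sets shared by Ndufb4 and Ndufb4b, accessory subunits of complex I, had overlapping groups, with differences of -0.20 and -0.19. The probe set shared by Ndufs5 and its pseudogene Ndufs5-ps differed by -0.20, while that of Ndufs5 alone differed by 0.25, and neither was above background.

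The spread between arrays was larger among controls than among mutants for 63 of the 90 oxidative phosphorylation genes (70.0%, against 71.0% of all genes tested), with a median SD of 0.09 among mutant arrays and 0.125 among control arrays. Mutant replicate 3 was the lowest mutant array for 49 of the 90 genes, a count whose share over all genes was not computed. It was the highest mutant array for 16 of the 90 (17.8%, against 26.4% of all genes tested). Leaving out the assembly factors and the restricted isoforms, 76 genes had a median difference of -0.104, with 58 negative differences (76.3%, against 45.0% of all genes tested). By limma 0 were called higher and 4 lower (5.26%, against 6.82% of all genes tested called lower). The count of 0 follows from the choice of genes, since Ndufa4l2, the only gene called higher, was left out. Cox8b and Ndufaf1, which were higher in the mutants at an unadjusted p below 0.05, were left out too. At an unadjusted p below 0.05 there were 3 higher (3.95%, against 16% of all genes tested) and 14 lower (18.4%, against 13.5%).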
